A study of Canis lupus familiaris with 48 samples.

Results

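Raffinose and urea were compared at the same total osmolality in MDCK I cells, an established line of dog kidney epithelium. The comparison takes all libraries whose treatment label is raffinose or urea, which gave 24 of the 48 libraries of the series, 12 for each solute. Cells were cultured for 144 h, and for the final 24 h the medium held 200 mOsm of added raffinose or of added urea, 500 mOsm in total. The control group, 12 libraries in regular medium of 300 mOsm, is given beside them, and a NaCl group of 12 enters the shared fit. All groups used cells of this 1 line, grown on uncoated plastic in serum-containing DMEM/F-12, at the same 12 passage numbers from 1 to 19. Each solute has 1 library at each passage. The stated aim of the study was to follow pathways and drug transporters under hyperosmotic stress.

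Both solutes are uncharged, and they differ in whether they enter the cell. Raffinose, a trisaccharide, crosses the plasma membrane poorly, so it draws water out of the cell and acts as an effective osmole. Urea passes through membranes and through its own transporters and comes to the same concentration inside and outside, so it raises osmolality with little lasting change of cell volume. In the inner medulla of the kidney epithelial cells meet high concentrations of both kinds of solute, NaCl and urea, as the urine is concentrated. Cells held in a hypertonic medium are known to take up or make organic osmolytes, and high urea is known to disturb proteins.

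The values are read counts per gene. A level is in counts per megaread (CPM) on scaled library totals, given with its SD over 12 libraries, and a difference is a log2 fold change, raffinose against urea, with its SE. The median library had 10.1 megareads (M) counted after raffinose (6.60 to 16.2), 10.3 M after urea (3.92 to 15) and 10.2 M in control (6.08 to 16.1). The shallowest library was urea at passage 8. A gene is called where edgeR's quasi-likelihood test gave a Benjamini-Hochberg adjusted p under 0.05. Genes carry identifiers without symbols, so most are given by their position in the dog genome build CanFam3.1, and the labelled cell type was not checked against its markers. These are bulk libraries, in which fewer cells with a transcript and less transcript per cell cannot be told apart. The replicates are passages of a single line, so a p-value here speaks of passage-to-passage spread, which may in part be technical.

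Expression after raffinose and after urea was far apart at equal osmolality. Of 12654 tested genes, 9614 were called, which is 76.0% of all genes tested, with 4761 higher after raffinose (37.6%) and 4853 lower (38.4%). Of these, 3016 genes (23.8%) also differed by at least 2-fold, 1709 higher (13.5%) and 1307 lower (10.3%). The log2 fold changes of all tested genes had an SD of 1.14 and a median size of 0.50. In 6479 genes (51.2%) all 12 same-passage pairs lay in 1 direction, 3272 higher and 3207 lower after raffinose. In 1802 genes (14.2%) every raffinose library lay above every urea library, and in 1612 (12.7%) every one lay below.

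Seen by library, the first principal component of the 24 libraries held 71.5% of the variance of log2 CPM and the second 5.17%. Raffinose libraries lay between -63.0 and -53.3 on the first component and urea libraries between 49.9 and 65.7, so the solutes did not overlap. To turn the urea profile of a passage into its raffinose profile, 21.6% to 25.8% of all counts (median 23.7%) would have to move to other genes. Within raffinose the same measure over 66 pairs of libraries was 5.97% to 13.7% (median 9.64%), and within urea 4.31% to 14.0% (median 8.21%). Every pair across the solutes at 1 passage therefore lay farther apart than any pair within a solute. Against control at the same passage, raffinose stood 21% to 24.9% away and urea 10.6% to 14.4%.

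The balance of directions moved with the size of the difference. At 4-fold or more, 619 called genes were higher after raffinose and 256 lower, at 8-fold or more 280 and 53, at 16-fold or more 139 and 11, and at 32-fold or more 79 and 3. Genes higher after raffinose thus made up 49.5% of all called genes, 56.7% at 2-fold and 96.3% at 32-fold. Of the 139 genes, 99 were under 1 CPM in control, where many genes passed the filter only through a treated group. The trend with size is therefore no evidence by itself. With library totals alone in place of TMM factors, the median of all genes moved from -0.01 to -0.17, and 3769 genes were called higher and 5941 lower (38.8% higher). Under that scaling the 2-fold genes were mostly lower after raffinose, 1409 higher and 1730 lower, while at 16-fold 123 were higher and 16 lower.

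**Figure D1:**
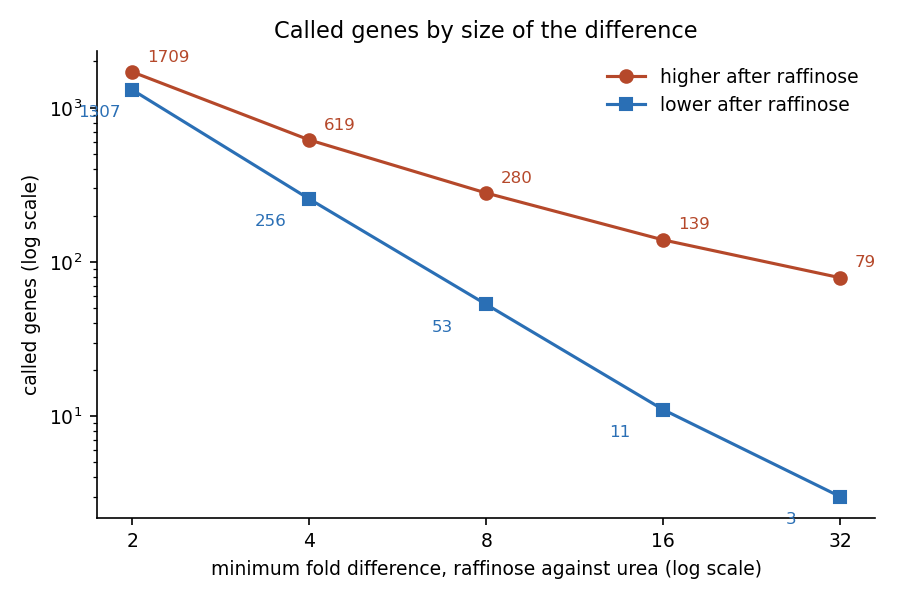
Number of called genes (vertical axis, log scale) at or above each minimum fold difference between raffinose and urea (horizontal axis, log scale), split by direction, from 1 fit over 48 libraries. The lines part with size, from 1709 against 1307 genes at 2-fold to 79 against 3 at 32-fold.

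Most of the genes with the largest rises after raffinose were barely read in untreated cells, while most of those with the largest falls were not. The 689 tested genes under 1 CPM in control held 99 of the 139 genes at least 16-fold higher after raffinose and 3 of the 11 lower. Many of these passed the filter on low counts only because a treated group expressed them. Those let in by raffinose or by urea alone had to differ between the solutes, so the count is no evidence by itself. Among the 6725 genes at 10 to 100 CPM in control the order was the other way at 2-fold, with 537 higher and 700 lower, and nearly even at 4-fold, with 112 and 113. Among the 2225 genes at 100 CPM or more, 181 were higher and 188 lower at 2-fold, and 42 and 31 at 4-fold.

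**Figure D2:**
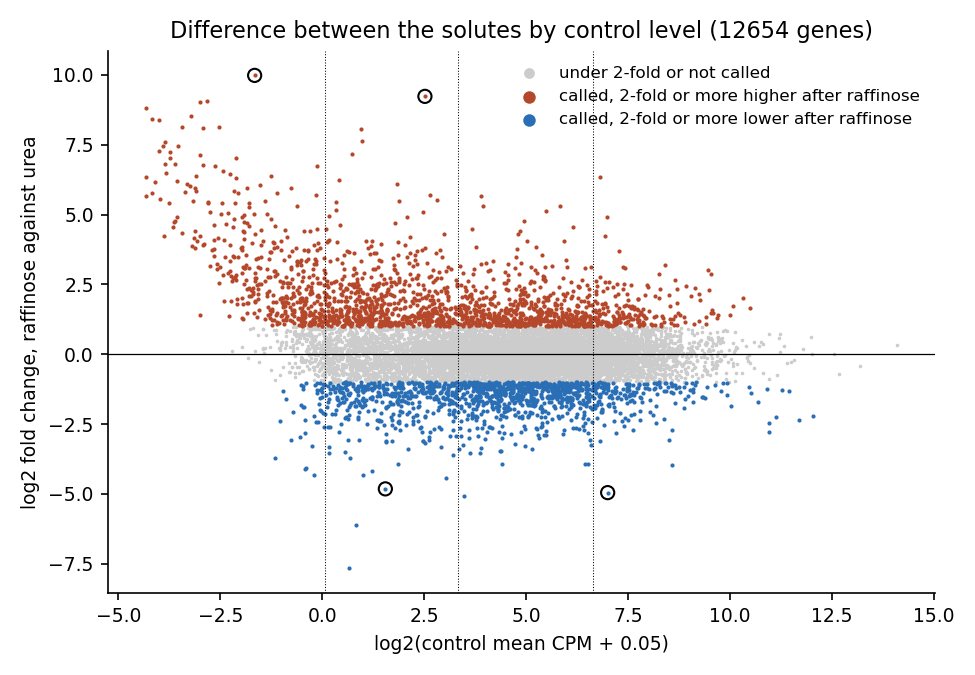
Log2 fold change, raffinose against urea (vertical axis), against the control mean as log2(CPM + 0.05) (horizontal axis) for each of 12654 tested genes; coloured points are called and differ by at least 2-fold, circles mark the 4 genes named in the text, and dotted lines stand at 1, 10 and 100 CPM. The highest points lie at the left, where 407 genes were at least 2-fold higher and 41 lower.

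For most genes that parted the solutes, the untreated level lay nearer to urea. Against control, 74.9% of all tested genes were called after raffinose and 52.3% after urea. Of the 1709 genes at least 2-fold higher after raffinose, 1344 (78.6%) had a control level closer to urea, and of the 1307 lower genes 1109 (84.9%) did. The higher genes had a median log2 fold change of 1.38 for raffinose against control and -0.30 for urea against control. For the lower genes these medians were -1.23 and 0.21. The control level lay between those of the solutes in 1064 higher and 889 lower genes. It lay beyond that of urea in 537 and 381, and beyond that of raffinose in 108 and 37, where both solutes stood on the same side of control. These comparisons share libraries, so they are given side by side without a test.

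As a share of all counted reads, the 1709 higher genes took 22.4% ± 0.99 (SD, n = 12) after raffinose, from 20.6% to 24.1%. They took 6.5% ± 0.32 after urea and 7.73% ± 0.33 in control. The 1307 lower genes took 4.05% ± 0.19 after raffinose, 13.0% ± 0.39 after urea and 10.6% ± 0.39 in control. The genes were chosen from these libraries, so the shares describe them and are not tested. Reads gained by raffinose were held by few genes: 119 genes made up 50% of the gain in the mean profile and 331 genes 50% of the loss.

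The gene that gained the most reads held only a small part of the whole gain. It lies on chromosome 7 from 19668011 to 19674918 on the minus strand, has 10 exons, and rose from 183 ± 56.7 CPM after urea (95.7 to 295) to 15004 ± 4993 after raffinose (6441 to 23016). Control libraries had 112 ± 46.5 CPM, and no raffinose library overlapped a urea library (log2 fold change 6.36 ± 0.26, edgeR adjusted p = 8.82e-28). Its share of all reads rose by 1.36 percentage points. This gene and the following 5 were picked for their change in reads after the values were seen.

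The next gains were smaller in fold. The gene on chromosome 20 from 4531730 to 4616854, with 15 exons, had 5651 ± 1725 CPM after raffinose and 769 ± 123 after urea, with 748 in control (2.88 ± 0.13, edgeR adjusted p = 7.87e-26). The gene on chromosome 30 from 6770135 to 6785062, with 22 exons, had 4453 ± 1547 against 549 ± 135, with 706 in control (3.02 ± 0.17, edgeR adjusted p = 5.17e-22). In both, urea was close to control or below it, and the raffinose libraries stood above all urea libraries.

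The largest losses were shallower. The mitochondrial gene from 7964 to 8644 had 5551 ± 1306 CPM after raffinose and 9107 ± 979 after urea, with 6518 in control (-0.71 ± 0.11, edgeR adjusted p = 1.67e-07). On chromosome 27 a gene of 9 exons from 2221689 to 2229112 had 946 ± 144 CPM against 4811 ± 708, with 3292 in control (-2.35 ± 0.10, edgeR adjusted p = 9.39e-28). On chromosome 36 a gene of 54 exons from 30537639 to 30677658 had 1894 ± 261 against 4748 ± 514, with 2795 in control (-1.33 ± 0.08, edgeR adjusted p = 6.52e-21). In all of these the urea mean lay above control and the raffinose mean below it.

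Among genes with a mean of at least 5 CPM and 1 direction in all 12 pairs, 2608 were higher and 2862 lower after raffinose, and the 2 most extreme each way are described in full. ENSCAFG00000006942, on chromosome 15 from 40179872 to 40239634 (minus strand, 15 exons), had 128 to 309 CPM after raffinose with a median of 228. After urea it had 0 to 1.77 CPM with a median of 0, and 7 of the 12 urea libraries had 0 reads. The urea group had 27 reads in all, 19 of them at passage 5, and the urea mean of 0.208 CPM became 0.0657 without that library. Control was as low, 0 to 1.46 CPM with a median of 0.138. NaCl libraries were near raffinose, at 134 to 262 CPM with a median of 213. The groups of raffinose and urea were apart by 9.98 ± 0.32 (edgeR adjusted p = 1.17e-32), and by 11.48 without passage 5. Urea against control gave -0.44 ± 0.68 (edgeR adjusted p = 0.609), so no difference from untreated cells was detectable at these counts, and raffinose against control gave 9.54 ± 0.30.

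ENSCAFG00000015756, on chromosome 27 from 42269697 to 42296182 (minus strand, 16 exons), reached a higher level. It had 1562 to 2551 CPM after raffinose with a median of 1891, and 0.199 to 20.5 CPM after urea with a median of 0.742. Passage 5 again gave the urea maximum, and without it the urea mean went from 3.13 to 1.55 CPM. Control libraries had 1.78 to 14.8 CPM with a median of 3.78. The solutes differed by 9.23 ± 0.45 (edgeR adjusted p = 7.23e-25), by 10.24 without passage 5, and by 4.90 in DESeq2 (adjusted p = 5.53e-10); the reason for the smaller DESeq2 estimate was not tested. Urea against control gave -0.83 ± 0.41 (edgeR adjusted p = 0.0808). This gene was high after NaCl too, at 1264 to 2123 CPM with a median of 1534.

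ENSCAFG00000032326, on chromosome 7 from 43480708 to 43482461 (plus strand, 2 exons), moved away from control with each solute. Raffinose libraries had 6.21 to 18 CPM with a median of 10.9, control libraries 62.6 to 244 with a median of 115, and urea libraries 89.6 to 595 with a median of 325. The lowest urea library, passage 17, was still above every raffinose library. The solutes differed by -4.95 ± 0.24 (edgeR adjusted p = 1.11e-24). Against control, raffinose fell by 3.48 (SE 0.23) and urea rose by 1.47 ± 0.20 (edgeR adjusted p = 2.59e-19 and 2.09e-08). NaCl libraries were low as well, at 8.00 to 21.5 CPM with a median of 14.5.

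ENSCAFG00000003461, on chromosome 10 from 69288237 to 69293771 (plus strand, 8 exons), was mainly a gene of urea-treated cells. Urea libraries had 14.9 to 61.4 CPM with a median of 23.7, the highest at passage 1. Raffinose libraries had 0.192 to 2.57 CPM with a median of 1.06, and control libraries 0.627 to 7.47 with a median of 2.19, so raffinose and control overlapped while urea stood above both. The solutes differed by -4.82 ± 0.31 (edgeR adjusted p = 4.37e-20). Urea against control gave 3.32 ± 0.26 and raffinose against control -1.50 ± 0.34 (edgeR adjusted p = 1.98e-15 and 0.000106). NaCl libraries had 0.194 to 1.39 CPM with a median of 0.737.

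**Figure D3:**
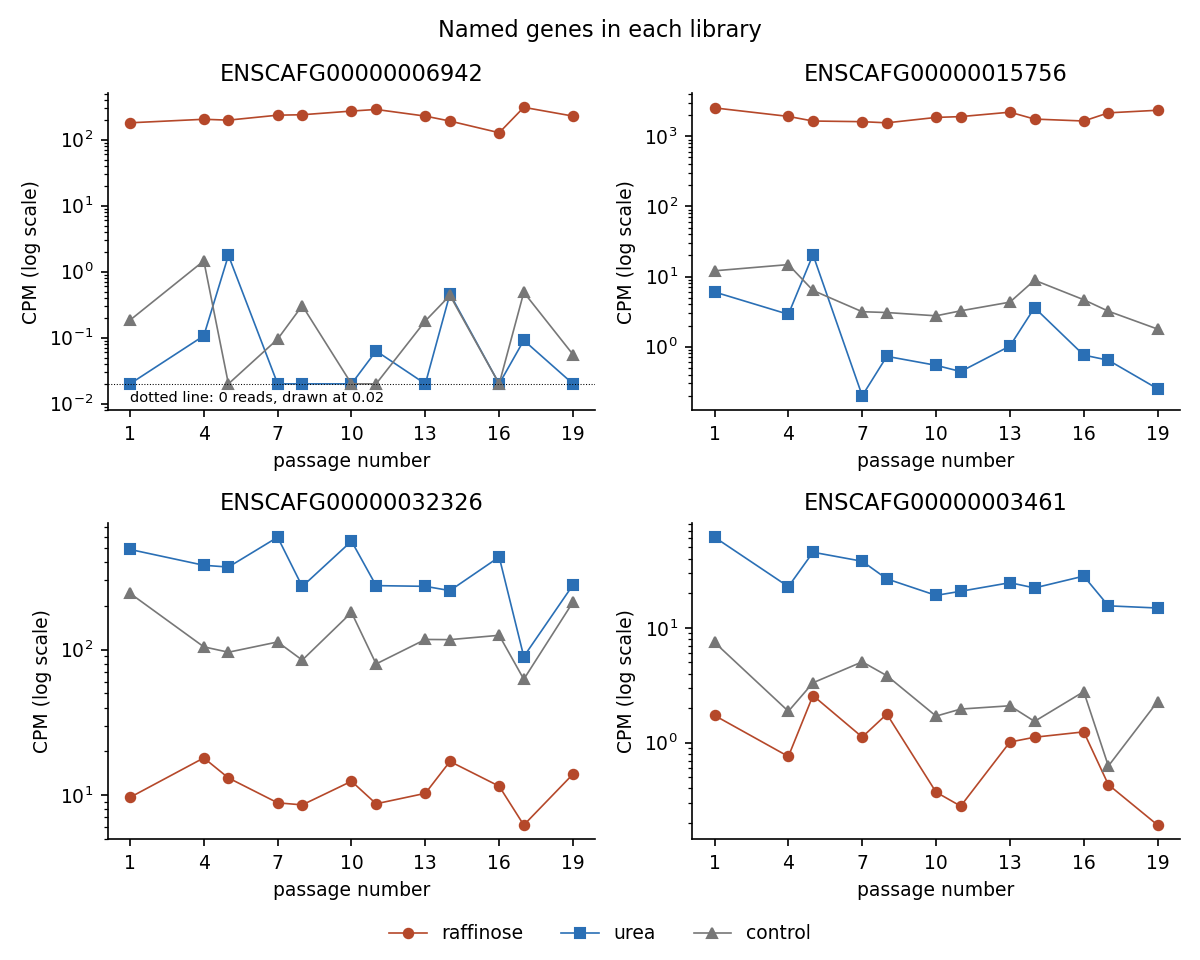
Level of the 4 named genes in CPM (vertical axes, log scale) in each raffinose, urea and control library by passage number (horizontal axes); 0 reads are drawn at 0.02. Raffinose and urea stay apart at all 12 passages in each panel, and urea at passage 5 is the highest urea point in both upper panels.

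The urea library of passage 5 stood out in other genes of this kind too. Of the 139 genes at least 16-fold higher after raffinose, 36 had their highest urea level at passage 5, 26 at passage 1 and 17 at passage 8, the shallowest library. The other 9 urea libraries were highest in 2 to 14 of these genes each. Summed over the 139 genes, urea libraries had 711 to 1041 CPM (median 871), with passage 5 the highest. Control libraries had 743 to 1044, the highest at passage 4 and the next, 991, at passage 14. Control passage 4 also gave the control maximum of ENSCAFG00000006942 and of ENSCAFG00000015756. The sum includes genes well read after urea, such as the chromosome 7 gene at 183 CPM, so it says little of low levels. Where the reads of passage 5 came from was not tested. Without that library 9576 genes were called.

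Some genes had few or no reads after 1 of the solutes at this depth and were expressed after the other. With at most 3 reads over the 12 urea libraries and a mean of at least 1 CPM after raffinose, 33 genes were found, and with the roles exchanged 2. These counts are descriptions, since the rule itself asks for the difference. The 33 genes had 1.00 to 10.4 CPM after raffinose (median 1.76), and all had reads in all 12 raffinose libraries. They lie on 22 chromosomes, 4 are single-exon genes, and 15 also had at most 3 reads over the 12 control libraries. The single-exon gene on chromosome 27 from 42289870 to 42290183 lies within the abundant ENSCAFG00000015756, on the same strand. Whether its reads belong to that gene was not tested. After NaCl, 21 of the 33 reached 1 CPM. In 8 of them no read was seen after urea, and set against a floor of 3 reads over the group (0.0234 CPM) these were at least 44.4-fold to at least 219-fold higher after raffinose.

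Both genes that were near silent after raffinose were expressed in control. A gene of 24 exons on chromosome 17, from 24775964 to 24798959, had 3 reads over all raffinose libraries, 2.61 ± 1.4 CPM after urea and 1.72 in control. A gene of 12 exons on chromosome 4, from 19768168 to 19889907, had 0 reads after raffinose, 2.32 ± 0.88 CPM after urea and 1.54 in control, and was at least 89.1-fold lower after raffinose. After NaCl the means were also low, 0.0081 CPM for the chromosome 17 gene and 0.0319 for the chromosome 4 gene. Reads carry no molecular identifiers, so floors cover counting error only. With at most 10 reads allowed the counts became 78 and 7, and with a mean of at least 5 CPM 3 and 0.

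The make-up of the libraries differed between the solutes. Raffinose libraries had 12210 ± 76 genes at 1 CPM or more (12108 to 12352) and urea libraries 11837 ± 89 (11730 to 11991), with control at 11967 ± 88. Raffinose was higher in all 12 pairs (two-sided permutation test over 5 measures, adjusted p = 5e-05, from a raw p of 1e-05, the smallest that 100000 resamples can give). With CPM from library totals the groups came closer and overlapped, 12123 ± 132 (11920 to 12252) against 11892 ± 83 (11761 to 12006). The 50 most abundant genes of a library took 16.7% ± 0.86 of its reads after raffinose, 14.9% ± 0.84 after urea and 14.4% ± 0.70 in control. Raffinose was higher than urea in 12 of 12 pairs (permutation test, adjusted p = 2e-04).

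The other 3 measures did not pass the unpaired test. Nuclear single-exon genes took 1.81% ± 0.25 of reads after raffinose and 2.00% ± 0.24 after urea, against 2.56% ± 0.44 in control (permutation test, adjusted p = 0.1). Raffinose was lower in 11 of 12 pairs, and with the passage number as a block an exact sign-flip permutation test over same-passage pairs gave an adjusted p of 0.00163, which changes the call. Passages 8, 14 and 17 had the lowest single-exon shares in control and after both solutes. Mitochondrial reads were 4.77% ± 0.71 after raffinose and 5.40% ± 0.68 after urea, lower in 8 of 12 pairs (permutation test, adjusted p = 0.057). The number of counted reads did not part the solutes, 10.4 ± 2.6 M and 10.4 ± 2.9 M (permutation test, adjusted p = 0.982).

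**Figure D4:**
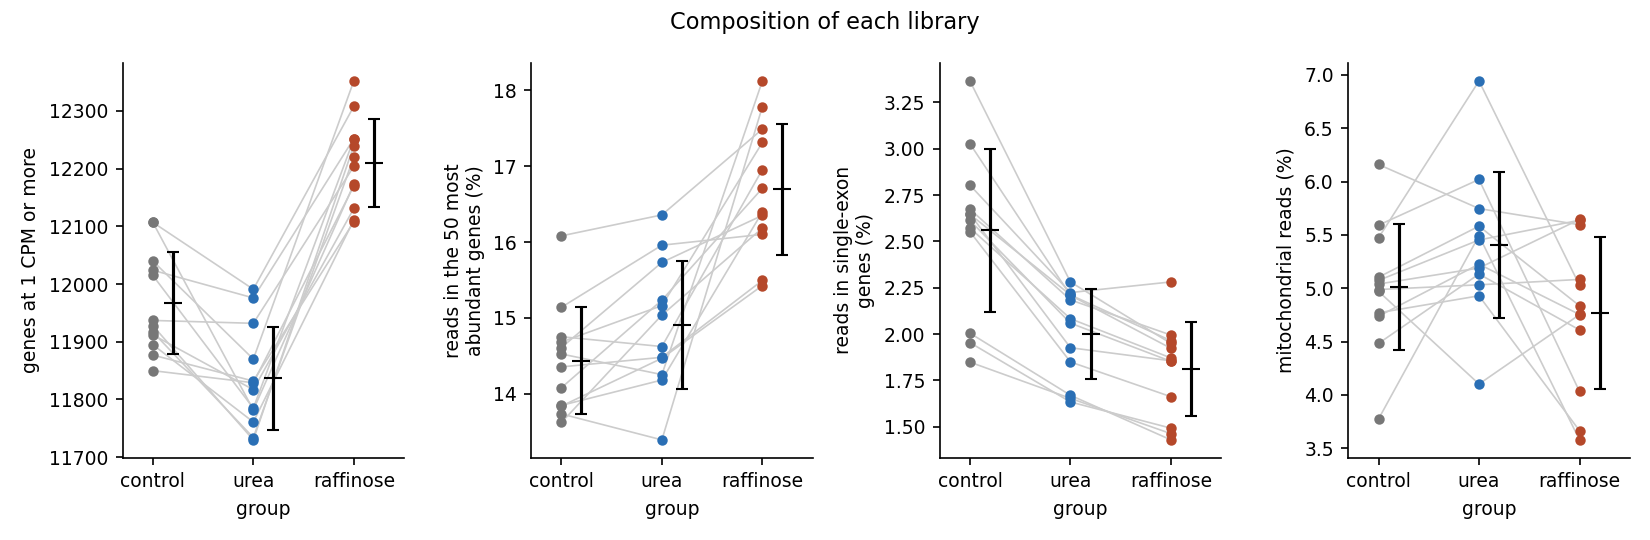
Composition of each control, urea and raffinose library: genes at 1 CPM or more, and percent of reads in the 50 most abundant genes, in single-exon genes and in mitochondrial genes (vertical axes, not starting at 0); points are libraries, grey lines join the libraries of a passage, and black bars are mean ± SD (n = 12). All 12 raffinose libraries lie above all urea libraries only in the first panel.

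Long genes leaned to raffinose. Of 485 tested genes spanning 200 kb or more, 249 (51.3%) were higher after raffinose and 146 (30.1%) lower, with a median log2 fold change of 0.27, beside 37.6%, 38.4% and -0.01 over all tested genes. Of 2925 genes with over 15 exons, 1315 (45%) were higher and 1012 (34.6%) lower, with a median of 0.10. With library totals alone, which lower the median of all genes to -0.17, the long genes counted 216 higher and 175 lower with a median of 0.11, and the genes of many exons 1060 and 1257 with a median of -0.06. Less the median of all genes, the medians were 0.27 for long genes under both scalings, and 0.11 under TMM and 0.10 with library totals for genes of many exons. Single-exon genes counted 250 higher and 308 lower of 841, with a median of -0.08, and genes spanning under 10 kb 1444 higher and 1594 lower of 4199.

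By chromosome, the balance of called genes varied, and those given here are examples. Several leaned to 1 side, among them chromosome 22 with 46.4% higher and 32.9% lower, and chromosome 28 with 34.6% and 47.6%. Beside 37.6% higher and 38.4% lower over all tested genes, chromosome 13 had 122 of 250 genes higher after raffinose (48.8%) and 75 lower (30%), and chromosome 35 had 61 (47.7%) and 43 (33.6%) of 128. On chromosome 30, 88 of 286 were higher (30.8%) and 129 lower (45.1%). Beside 13.5% and 10.3% over all tested genes at 2-fold or more, chromosome 10 had 74 of 462 genes higher (16%) and 28 lower (6.06%). Chromosome 15 went the other way, with 33 (9.62%) and 58 (16.9%) of 343. In all, 21 chromosomes had more genes higher than lower, and 1 did with library totals alone, a scaling that lowers all genes together. Less the median of all genes, the chromosome medians stayed close under TMM and library totals, at 0.18 and 0.18 for chromosome 13, 0.22 and 0.22 for chromosome 35, and -0.14 and -0.14 for chromosome 15.

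Transcripts of the mitochondrial genome did not move together. Of its 31 tested genes, 8 were higher after raffinose (25.8%) and 9 lower (29%), so 54.8% were called, beside 76.0% of all tested genes. Among the 15 of at least 200 bases, 3 were higher and 7 lower, from -0.99 to 1.42. The gene from 14183 to 15322 had 646 CPM after raffinose and 1288 after urea (-0.99 ± 0.10, edgeR adjusted p = 4.72e-13). The gene from 70 to 1023 had 554 against 207 CPM (1.42 ± 0.22, edgeR adjusted p = 9.17e-08). Both were singled out after their values were seen, as the ends of the range. Among the 16 shorter genes 5 were higher and 2 lower. The libraries were made from polyadenylated RNA, and the part of that step in these values was not tested.

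Neighbouring genes were examined in windows of 8 tested genes, and the 3 highest and 3 lowest windows are described, without a test, since they were picked for their means. Over all 12266 windows the mean log2 fold change had a median of 0.04, with 1% of windows below -0.92 and 1% above 1.58. The picked windows had means of 3.50, 3.32 and 2.83 on chromosomes 25, 15 and 2. On chromosomes 27, 7 and 17 the means were -1.78, -1.63 and -1.52. Below, each run is described by the median of its genes, which is not to be set against the range of means. On chromosome 25 from 7832887 to 9427363 all 8 genes were higher after raffinose, 6 of them by at least 2-fold, with a median of 3.44. The member from 8129601 to 8183935 had 0 reads after urea and 4 in control. It passed the filter only through treated groups, so its direction is no evidence by itself. Mean log2 CPM over the run was 4.74 to 5.30 in raffinose libraries, 2.19 to 2.41 in urea and 2.09 to 2.72 in control, so urea lay within the control range. The median of this run was 2.40 without passage 1, 1.82 with genes averaging at least 5 CPM and 1.78 in a fit of only the 24 libraries.

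On chromosome 15 from 39444146 to 40239634, a run that ends with ENSCAFG00000006942, 7 genes were higher and 1 lower, with a median of 2.39, which was 1.27 with genes averaging at least 5 CPM and 1.24 with only the 24 libraries. Its raffinose libraries had a mean log2 CPM of 3.56 to 4.06, against 0.70 to 1.52 after urea and 0.71 to 1.43 in control. The first gene of this run, from 39444146, had 2 reads over the urea libraries and 6 over control. That gene too passed the filter only through treated groups. On chromosome 2 from 59198173 to 59706199, 7 of the 8 genes were called, all higher and all by at least 2-fold, with a median of 2.15. There the levels were 6.90 to 7.23 after raffinose and 4.40 to 4.66 after urea, with control at 4.26 to 4.66. In each of the 3 higher runs, raffinose stood apart and urea overlapped control.

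In the lower runs raffinose lay below control. On chromosome 27 from 2189327 to 2827413, 7 of 8 genes were lower after raffinose, with a median of -1.69. Raffinose libraries had a mean log2 CPM of 3.31 to 4.14, urea 4.65 to 5.49 and control 4.48 to 5.47. On chromosome 7 from 43383139 to 43482461, a run that ends with ENSCAFG00000032326, all 8 genes were lower, 4 by at least 2-fold, with a median of -0.94, or -1.63 with genes averaging at least 5 CPM. The levels there were 3.82 to 4.31 after raffinose, 5.20 to 6.03 after urea and 4.88 to 5.57 in control. On chromosome 17 from 22680643 to 24798959, 7 genes were lower and 1 higher, with a median of -0.83. Its mean of -1.52 rests largely on genes at -6.11 and -2.96. The gene at -6.11, which ends the run, is the chromosome 17 gene near silent after raffinose. Levels in the run were 3.09 to 3.66 after raffinose, 4.34 to 4.60 after urea and 3.67 to 4.22 in control. In that run urea libraries lay above all control libraries and raffinose libraries below them.

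**Figure D5:**
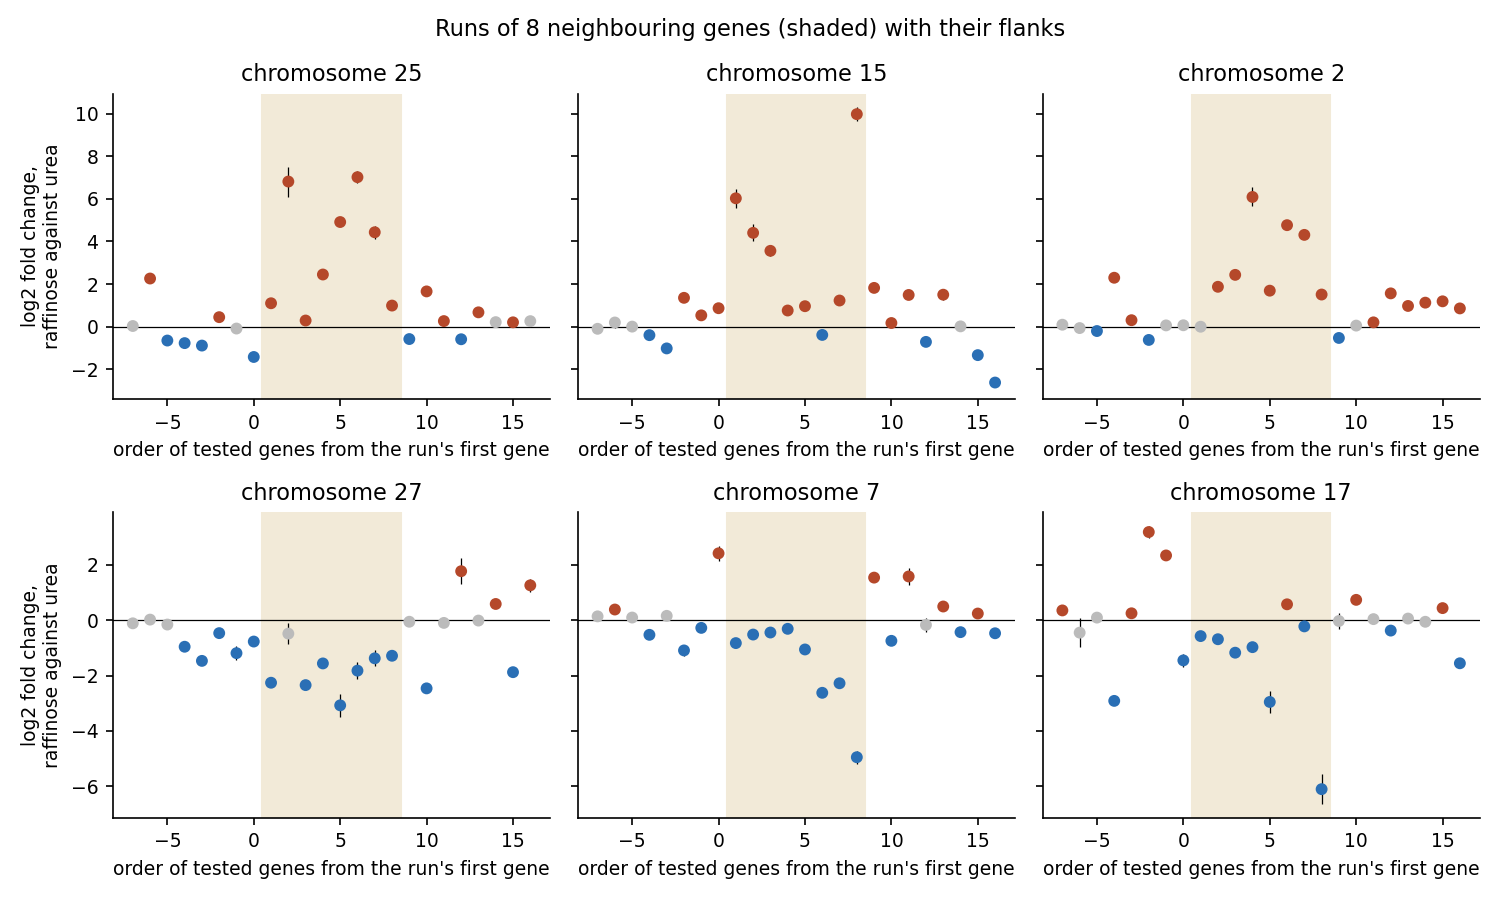
Log2 fold change, raffinose against urea (vertical axes), of each gene in the 3 highest and 3 lowest windows of 8 tested genes (shaded) and of the genes beside them, by order along the chromosome (horizontal axes); bars are SE, red and blue points are called higher and lower after raffinose, grey points are not called. The runs on chromosomes 25, 27 and 7 have all 8 genes on 1 side of 0.

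The difference between the solutes was present at each passage. Among 10101 genes with at least 5 CPM, the pair of passage 5 had the fewest genes at least 2-fold apart, 913 higher and 845 lower, and passage 7 the most, 1221 and 1219. When genes were called from 11 passages and looked up in the pair left out, 92.0% (passage 8) to 96.7% (passage 11) of them had the same sign. Among genes also past 2-fold this share was 97.3% to 99.3%, again lowest for passage 8. The lowest value thus came from the pair with the shallowest library.

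Whether the difference changed with passage number was tested gene by gene. The edgeR test of the raffinose slope against the urea slope called 0 of 12654 genes, with 501 (3.96%) at an unadjusted p under 0.05 and a smallest adjusted p of 0.277. With the passage number as a block 3 genes were called, in each of which the raffinose to urea ratio grew with passage. They lie on chromosome 17 from 30269745 to 30278554 (log2 1.26 per 10 passages, edgeR adjusted p = 0.00582), on chromosome 20 from 44595241 to 44599380 (0.95, edgeR adjusted p = 0.0457) and on chromosome 24 from 32600618 to 32614165 (1.41, edgeR adjusted p = 0.0457). The first of them had 195 CPM after raffinose and 14.2 after urea on average. From passage 1 to passage 19 it fell after both solutes, from 311 to 119 CPM after raffinose and from 41.1 to 2.42 after urea. The chromosome 24 gene also fell after both, from 15.3 to 5.19 and from 9.41 to 0.418. The chromosome 20 gene rose from 24.8 to 60.2 after raffinose and fell from 12.5 to 8.43 after urea. Each of these values is a single library.

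The spread between passages was also estimated within each solute. The common biological coefficient of variation was 18.6% within raffinose and 16.8% within urea, with 15.9% in control. Leaving out each passage in turn gave 18% to 19.2% for raffinose and 15.3% to 17.4% for urea, the lowest without passage 1. The difference in spread was not tested.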

How the data were processed

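The authors deposited raw read counts per gene for 48 single-read, poly A libraries. The tools named in the submitters' processing notes are CASAVA, HISAT2 2.0.5 and featureCounts 1.5.1. Exons of Ensembl release 87 (CanFam3.1) were counted by gene without strand, per the file headers. Genes that overlap, have a near-identical copy or an antisense partner are therefore less certain. The table holds 32704 genes, 25518 with a read. No identifier (0) could be paired with a symbol, so the planned pathway, transporter and marker lists were not applied, and no sequence is shown.

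Testing used R 4.3.3 and edgeR 4.0.16: filterByExpr, TMM, glmQLFit over all 48 libraries by group, and glmQLFTest of raffinose minus urea. The common biological coefficient of variation was 17.0%. SE is the log2 fold change over the square root of F. Log CPM used a prior count of 2. Library measures used two-sided permutation tests. The procedure was tested on simulated counts in which few genes changed, as many up as down. Most genes were called here, so that test cannot check the scaling or the calls in these data. The lowest chi-square per gene between libraries of a solute was 4.04, so every such pair differed by more than counting error. Each library was treated as 1 replicate, and this value cannot show that replicates were independent. Table columns of passage 10 carry an added number of unstated meaning and were matched to passage 10.

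Genes were named by rule: the 2 highest and 2 lowest log2 fold changes among called genes that averaged 5 CPM or more in the 24 libraries and had 1 direction in all 12 pairs. Genes most like them are not given, since the libraries form separate clusters. The members, lists and rules were chosen with earlier results of these data known. The labels give the same passage to 1 library of each group, which pairs them; whether they shared a culture is not stated. Deviations from group means of same-passage raffinose and urea libraries correlated at 0.29 on average (11 of 12 pairs over 0.1), against -0.03 for the other 132 pairs. Alternatives were RLE or library-total scaling, other filters, DESeq2 1.42.0, glmTreat, passage as a block or linear term, the 24 libraries alone, single libraries and each passage left out. CPM from library totals, and gene groups by scaling, were added after seeing the data.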

Additional observations from a re-analysis of the deposited data

How the results depend on the processing

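The 4 named genes kept their direction and their side of the threshold under all 23 alternatives. Leaving out each passage in turn gave 9366 to 9553 called genes, 1676 to 1737 at least 2-fold higher after raffinose and 1282 to 1333 lower. With the passage number as a replicate block 10175 genes were called, 1710 and 1306 of them past 2-fold. The block moved 2 results across the threshold or by over 1.5 times, the slopes on passage (3 genes, smallest adjusted p 0.00582) and the single-exon share (-0.187 percentage points, adjusted p 0.00163 by the exact sign-flip permutation test); mitochondrial genes called went from 17 to 21 and single-exon genes from 558 to 601. Without a filter on low counts 3384 genes were at least 2-fold higher after raffinose and 857 single-exon genes were called (558 as reported); with a mean of at least 5 CPM these were 1075 and 290. With glmTreat 4152 genes passed a minimum fold of 1.5 and 2066 one of 2. With library totals only, 1 chromosome had more genes higher than lower. The median of the chromosome 25 run was 1.82 with a mean of at least 5 CPM, 1.78 with only the 24 libraries and 1.77 with the replicate block added, and 2.40 to 3.52 with a passage left out. For the chromosome 15 run these were 1.27, 1.24 and 1.24, and for chromosome 7 a mean of at least 5 CPM gave -1.63. The 5 CPM and 24-library settings test fewer genes (10136 and 12083). Windows of 6 and 12 genes found 4 and 3 of the 6 runs. Of the called genes at least 2-fold apart in either direction, the control lay closer to urea in 81.3%. With a mean of at least 5 CPM this share was 83.9%. Counted reads differed by 0.0266 M, and by -0.000828 and -0.562 M without urea passage 5 and without the shallowest library. Near-silent genes were 78 after urea and 7 after raffinose with at most 10 reads, and 3 and 0 with a mean of at least 5 CPM. Depth limits the genes under 1 CPM, which had few reads in the shallowest library.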
